A study of Mus musculus with 8 samples.

Results

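Solute carriers are membrane proteins that move nutrients, metals, ions and metabolites into, out of and within cells, and their genes carry *Slc* symbols. The genes described here are the 180 rows of the deposited count table whose symbol starts with *Slc* and a number and whose mean normalized count over the 8 libraries was at least 100, out of 369 such symbols and 23141 genes in all. They were selected on this mean level, a measured value, so their presence among the expressed genes is not a finding. The libraries came from RAW264.7 cells, a mouse macrophage line transformed with a leukemia virus, so the values describe 1 cell line and not macrophages of an animal. Cells were unstimulated (0 min) or had received 100 ng/ml LPS, a component of the outer membrane of Gram-negative bacteria that is sensed through TLR4, and RNA was taken every 15 min up to 90 min and at 120 min. All 8 groups share the same line and medium, and each group is 1 library, so differences over time have no replicate check and no p-value is given. GEO's labels name the RNA fraction as cytoplasmic and the molecule as total RNA, whereas the study speaks of total RNA alone, so which of these the counts represent is not settled here.

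Solute carriers work as uniporters, as cotransporters that use an ion gradient, or as exchangers. A macrophage sensing bacteria takes up more glucose, imports cystine for glutathione and arginine for nitric oxide, and moves iron, zinc and copper between cytosol and phagosome. Carriers of the *Slc25* family sit in the inner mitochondrial membrane, and members of *Slc35* bring nucleotide sugars into the Golgi and the endoplasmic reticulum.

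Total counts per library ranged from 100229997 to 159036125, and the *Slc* genes took between 1.01% and 1.18% of them. The ribosomal RNA precursor *Rn45s* took 8.18% to 9.11% of the counts at 0, 30, 60 and 120 min, but 12.96% to 20.54% at 15, 45, 75 and 90 min, so these 4 libraries stand apart and the results are also given without them. All 8 macrophage markers in the table had over 100 counts at 0 min. Their summed normalized counts were 699400 to 794300 across the libraries, whereas the summed B cell, epithelial and fibroblast markers stayed at or below 14.2. Single macrophage markers moved in both directions. From 0 to 120 min *Cd14* went from 56769 to 207492 normalized counts and *Fcgr1* from 14579 to 5561. The 4 T cell markers summed to 116.8 to 152.3, and 1 of them exceeded 100 counts. Whether fewer transcripts per cell or fewer cells gave a lower count cannot be told apart in these bulk libraries.

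In resting cells the *Slc* transcripts spanned more than 3 orders of magnitude per length. Levels of different genes are compared as RPKM, here reads per 1e6 counts of the library and per kb of unique 58-mers, the 58-base stretches (the read length) that occur in no other gene. The adenine nucleotide carrier *Slc25a5*, which exchanges ADP for ATP across the inner mitochondrial membrane, had the highest level at 0 min with an RPKM of 724 (95% interval 720.0 to 728). The mitochondrial phosphate carrier *Slc25a3* followed at 262 RPKM, ahead of the glutamine transporter *Slc1a5* at 141 and a further adenine nucleotide carrier, *Slc25a4*, at 132. Next in order were the lactate and pyruvate transporter *Slc16a1* with 103 RPKM, the mitochondrial carrier *Slc25a39* with 97.2 and the neutral amino acid transporter *Slc38a2* with 90.5. The zinc importer *Slc39a1* had 85.8 RPKM, the choline transporter *Slc44a1* 72.8 and the zinc transporter *Slc39a7* 66.8, although 80.7% of the exon bases of *Slc39a7* also belong to a readthrough transcript on the same strand. The counting intervals of neighbours among these 10 genes did not overlap, but they cover counting error only. The lowest level belonged to the bicarbonate transporter *Slc4a8*, with an RPKM of 0.112 (95% interval 0.0962 to 0.13), so that gene lay near the limit of the selection.

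None of the 10 genes with the highest levels met the call at any time, beside 22.2% of all genes with a mean of at least 100. These 10 genes are too few to be set apart from that share, and the 0 min level that ranks them is also the base of each ratio. Their normalized counts at 120 min lay between 0.871 (*Slc25a4*) and 1.44 (*Slc39a1*) times those at 0 min. *Slc25a5* had 96022, 92171, 94477, 92495, 97594, 99056, 100764 and 99905 normalized counts from 0 min to 120 min, and all values below are listed in this order of the 8 times. The transcript of *Slc16a1* had a ratio of 1.07 at 120 min, with 50593, 53104, 52453, 50804, 52769, 52779, 51474 and 54226 normalized counts. *Slc38a2* stood higher in the middle of the course, at 46688, 55513, 59689, 73592, 68619, 75405, 68586 and 57764 normalized counts, with its maximum at 75 min. That maximum, in the library with the highest share of *Rn45s*, was 1.61 times the value at 0 min and did not pass the test.

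**Figure D1:**
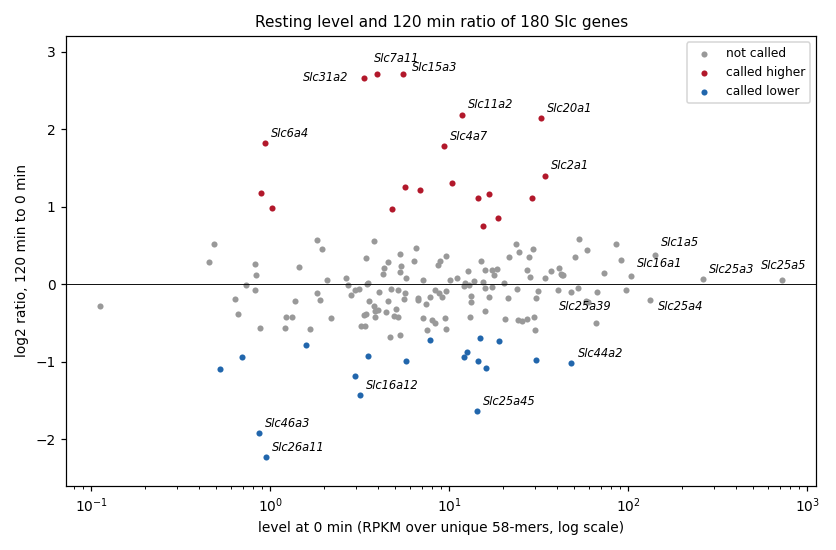
Level at 0 min (RPKM over unique 58-mers, log axis) against the log2 ratio of normalized counts at 120 min to 0 min for the 180 *Slc* genes, 1 point per gene. Red points were called higher (19 genes), blue points lower (19) and grey points were not called. The genes with the highest levels on the right lie near 0, and the 8 genes with the largest ratios have levels between 0.933 (*Slc6a4*) and 34.4 RPKM (*Slc2a1*).

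A gene was called at a time point when its log2 ratio to 0 min was beyond 0.5 and the unadjusted p of an exact negative binomial test of the 2 libraries was under 0.05, which describes that pair of libraries. By this rule 41 of the 180 *Slc* genes were called at 1 or more of the 7 times (22.8%), beside 22.2% of all 10492 genes with a mean of at least 100. At 15 min no *Slc* gene was called, where 0.324% of all genes were called higher and 0.152% lower. At 30 min there was again none, beside 1.29% of all genes called higher and 0.172% lower. At 45 min 6 *Slc* genes were called higher and none lower, against shares of 4.6% and 1.88% of all genes. Of these 6, *Slc20a1* alone was called with total counts as the scale (all genes 2.15%). *Slc20a1* and *Slc15a3* were called with total counts without *Rn45s* (all genes 3.36%), and these and *Slc35d1* with the spike-ins (all genes 3.63%). The early calls of *Slc3a2*, *Slc7a8* and *Slc25a33* thus depended on the scale. After 60 min 7 were higher and 2 lower, beside 4.05% and 3.15% of all genes. The counts grew to 14 higher and 6 lower at 75 min, or 7.78% and 3.33% (all genes 5.93% and 4.39%), and to 15 higher and 8 lower at 90 min, or 8.33% and 4.44% (all genes 6.97% and 5.63%). At 120 min 19 *Slc* genes had risen and 19 had fallen, 10.6% each, beside 9.27% and 8.52% of all genes. Up to 60 min each share of the family rested on 0 to 7 genes.

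The balance between higher and lower depended on the scale of the libraries at 60, 75, 90 and 120 min too, and that of all genes moved with it. With total counts as the scale, the split at 75 min was 5 higher against 14 lower (all genes 2.7% and 8.88%), and that at 90 min 8 against 19 (all genes 3.51% and 8.32%). Total counts without *Rn45s* gave 5 against 3 at 60 min (all genes 3.16% and 3.51%), 10 against 8 at 75 min (4.12% and 5.77%) and 13 against 16 at 90 min (4.74% and 7.36%). The 2 spike-in transcripts, which had been added per mass of RNA, gave 3 higher against 7 lower at 60 min (all genes 2.26% and 5.18%), 14 against 2 at 75 min (5.07% and 2.45%) and 14 against 4 at 90 min (5.64% and 3.54%). These scales move the median log2 ratio of all genes itself, which was -0.01 at 120 min, to -0.21 at 120 min and -0.34 at 75 min with total counts, and to -0.30 at 60 min with the spike-ins. At 120 min total counts gave 15 higher against 21 lower (all genes 4.87% and 9.99%). Total counts without *Rn45s* gave 17 against 24 at that time (5.52% and 11.6%), and the spike-ins 17 against 18 (5.55% and 8.25%). No *Slc* gene called at 120 min turned its direction under any scale. Calls of single genes at 60, 75 and 90 min are given below with size factors by the median of ratios alone.

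**Figure D2:**
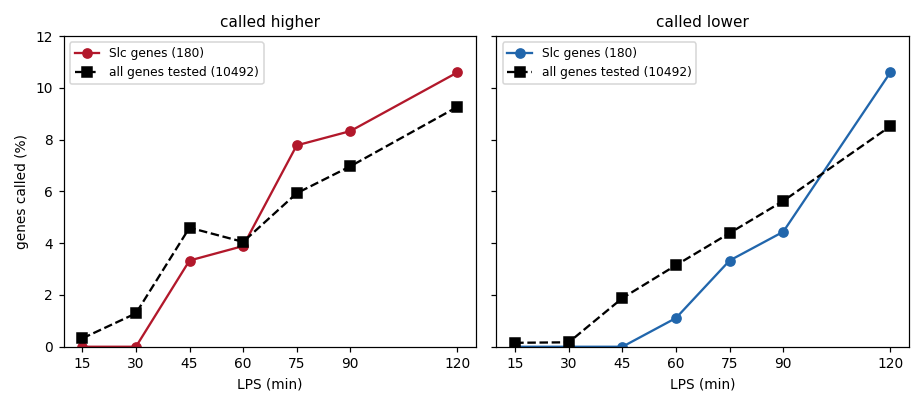
Share of genes called higher (left) and lower (right) than at 0 min, in percent, at each time of LPS treatment in min, for the 180 *Slc* genes (coloured line) and for all 10492 genes tested (dashed black line). Both lines climb to about 10% at 120 min, where the *Slc* genes reach 10.6% in each direction.

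The genes called at 120 min were followed along the course as a description, since their choice and the shared 0 min library favour one sign. Of the 19 that were higher at 120 min, 18 also had ratios above 1 at 60, 75 and 90 min, with *Slc6a4* as the exception, and 18 had their highest value at 120 min, with *Slc20a1* as the exception. All 19 genes that were lower at 120 min had ratios below 1 at those 3 times, and 18 of them had their lowest value at 120 min, with *Slc35f6* as the exception. Of all genes tested, 926 of the 973 higher at 120 min and 849 of the 894 lower lay on the same side at these 3 times, and 730 and 721 of them had their highest or lowest value at 120 min. No gene was called in both directions. The first call of 6 genes came at 45 min, that of 5 others at 60 min, that of 11 at 75 min, that of 4 at 90 min and that of 15 at 120 min, while 139 genes were never called and 113 stayed within 0.5 on the log2 scale at every time. Of the 38 genes called at 120 min, 22 were called in the same direction at 90 min and 7 at 60 min. When the size factors and the dispersion were both computed from the libraries of 0, 30, 60 and 120 min alone, 33 of the 38 calls were kept. The ones that were lost were *Slc25a25* among the risers and *Slc12a9*, *Slc25a28*, *Slc29a3* and *Slc35f6* among those that fell.

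**Figure D3:**
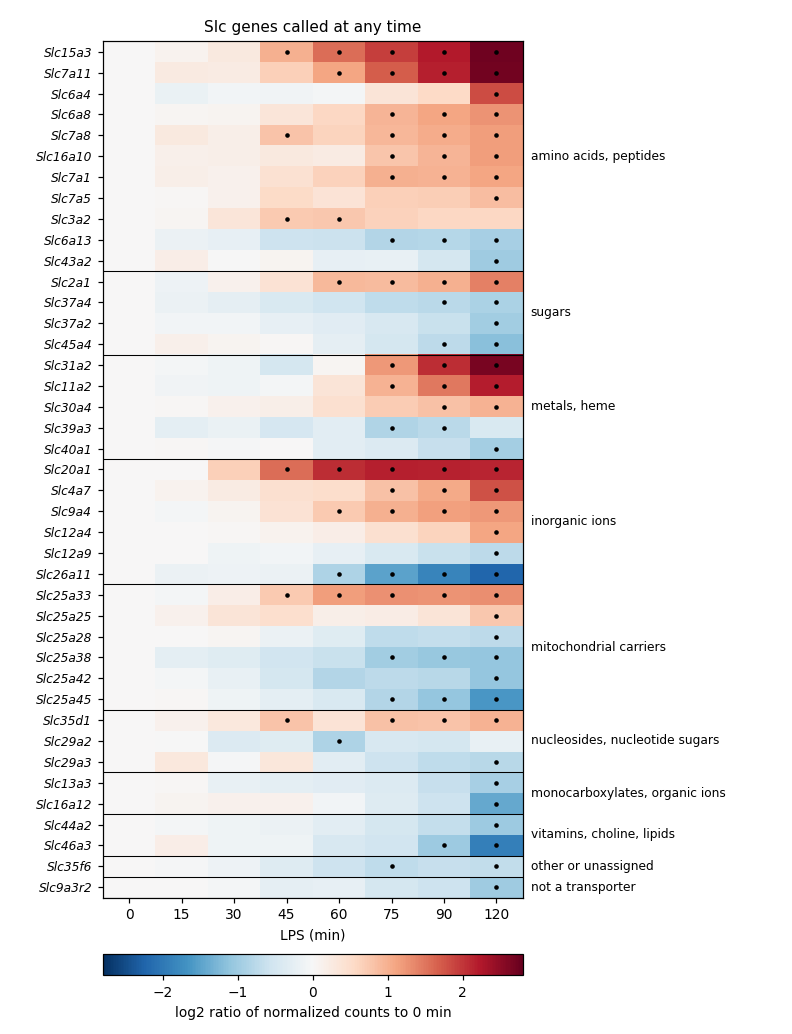
Log2 ratio of normalized counts to 0 min (colour, red higher and blue lower) for the 41 *Slc* genes called at any time (rows, grouped by substrate class) over the time of LPS treatment in min (columns). Black dots mark the time points at which a gene was called. The earliest dots, at 45 min, belong to 6 genes that rose, and the dots of genes that fell begin at 60 min.

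The 180 genes were sorted into 10 classes by the substrate of their family. The class of amino acids, their derivatives and peptides had 8 higher and 2 lower of 28 genes at 120 min and a median log2 ratio of 0.34. Over all genes tested the share called was 9.27% higher and 8.52% lower and the median was -0.01, and every class is to be read beside these values. Metals and heme had 3 higher and 1 lower of 26 genes with a median of 0.23. Inorganic ions had 4 higher and 2 lower of 22 genes with a median of -0.01. Glucose and other sugars had 1 higher and 3 lower of 11 genes and a median of -0.40. Among 36 mitochondrial carriers 2 were higher and 4 lower, with a median of -0.09, and among 18 carriers of nucleosides, nucleotides and nucleotide sugars 1 was higher and 1 lower, with a median of -0.13. In the 3 further transporter classes all calls were lower, 2 of 9 for monocarboxylates and organic ions, 2 of 13 for vitamins, choline and lipids and 1 of 12 for genes with another or no assigned substrate. The last class holds 5 genes that bear an *Slc* symbol but are not transporters, of which 1 was lower.

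**Figure D4:**
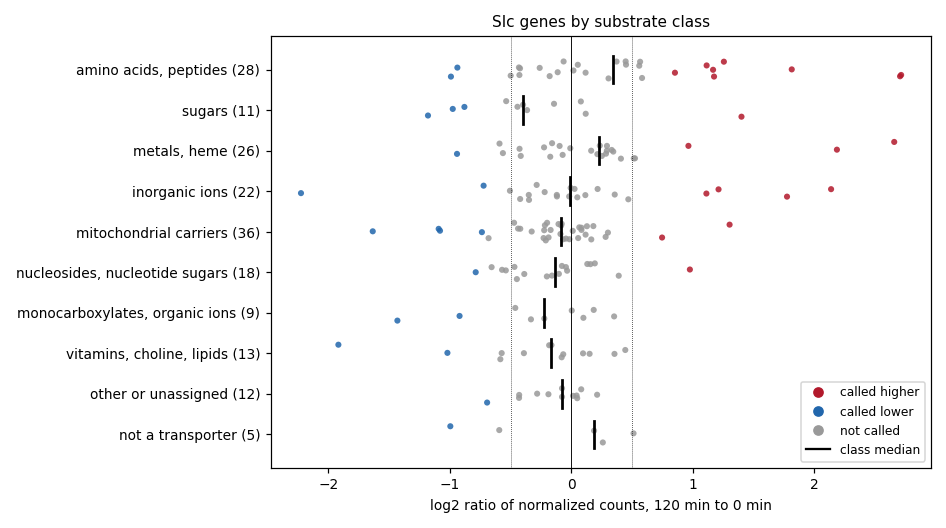
Log2 ratio of normalized counts at 120 min to 0 min (horizontal axis) for each *Slc* gene (points), by substrate class (rows, number of genes in parentheses). Red points were called higher, blue lower and grey not called, black bars are class medians and dotted lines mark 0.5 in either direction. Most red points lie in the classes of amino acids, metals and inorganic ions, and the medians range from -0.40 (sugars) to 0.34 (amino acids).

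In the class of amino acids, their derivatives and peptides, 8 genes had risen and 2 had fallen by 120 min. The gene of the cystine importer was among those with the largest ratios. *Slc7a11* (chr3:50364936-50499087, GRCm38) encodes xCT, the subunit that exchanges extracellular cystine for glutamate and so supplies cysteine for glutathione. It had 4034, 4813, 4765, 6426, 8672, 13124, 18188 and 26358 normalized counts, with every library from 45 min on above all earlier ones. Its ratio at 120 min was 6.54 (95% interval 6.34 to 6.74), and it was called from 60 min on. xCT reaches the cell surface bound to the heavy chain CD98, encoded by *Slc3a2* (chr19:8706882-8723369). *Slc3a2* had 16584, 17139, 21106, 27498, 28007, 25766, 24753 and 24845 normalized counts, with its highest values at 45 and 60 min. It was called at 45 and 60 min, with ratios of 1.66 (95% interval 1.63 to 1.69) and 1.69 (95% interval 1.66 to 1.72), while its ratio of 1.5 at 120 min did not pass the test.

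CD98 is also the partner of the large neutral amino acid exchangers *Slc7a5* (LAT1) and *Slc7a8* (LAT2) and of the cationic exchangers *Slc7a6* and *Slc7a7*. *Slc7a5* (chr8:121881146-121907686) had 7224, 7341, 7833, 10520.4, 9394, 11547, 11712 and 13058 normalized counts and rose by 120 min to 1.81 (95% interval 1.76 to 1.86) times the 0 min value, a call that was lost with total counts (with or without *Rn45s*) or spike-ins as the scale. *Slc7a8*, with 0.891 RPKM at rest against 18.6 for *Slc7a5*, had 402, 487, 450.4, 700.2, 618, 763, 825 and 908 normalized counts and a ratio of 2.26 (95% interval 2.03 to 2.52). It was first called at 45 min, missed the call at 60 min and was called again from 75 min. The 45 and 75 min libraries have a high share of *Rn45s* and the 60 min library does not. The ratios of *Slc7a6* and *Slc7a7* at 120 min were 0.884 and 1.37, neither of which was called.

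*Slc7a1* encodes the arginine and lysine transporter CAT1. Its normalized counts were 23171, 25778, 25193, 31378, 36483, 46507, 45690.1 and 50187, and the ratio at 120 min was 2.17 (95% interval 2.13 to 2.2), with calls from 75 min on. The inducible arginine transporter gene *Slc7a2* had a mean of only 1.73 normalized counts and was not among the genes selected. *Slc16a10*, a carrier of aromatic amino acids, had 12201, 13390.3, 13689, 14821, 14386, 21006, 23621 and 27414 normalized counts and rose to 2.25 (95% interval 2.2 to 2.29) times its resting value. Of the glutamine carriers, *Slc1a5* had 42664, 40924, 43691, 43396, 48839, 49584, 49451 and 55233 normalized counts and a ratio of 1.29, and *Slc38a1* a ratio of 1.36, neither called.

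The largest ratios of the family at 120 min, those of *Slc15a3*, *Slc7a11* and *Slc31a2*, had overlapping counting intervals and cannot be ordered. *Slc15a3* (chr19:10842544-10857915) encodes a transporter of histidine and small peptides in the membrane of lysosomes. Its normalized counts were 1406, 1513, 1689, 2783, 4129, 5406, 6559 and 9249, higher in each library than in the one before. The ratios were 1.98 (95% interval 1.86 to 2.11) at 45 min, when it was first called, and 6.58 (95% interval 6.24 to 6.93) at 120 min. Of its exon bases, 28.1% overlap *Tmem132a* on the opposite strand, and whether the counting used strand is not stated in the sources used here. The close relative *Slc15a4*, also a lysosomal histidine and peptide transporter, had 8864, 9087, 8514, 7509, 7409.9, 7189, 6632 and 6594 normalized counts and a ratio of 0.744 that was not called.

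The neurotransmitter transporter family *Slc6* held calls in both directions. The creatine transporter *Slc6a8* had 2061, 2141, 2186, 2612, 3073, 3961, 4399 and 4925 normalized counts and rose to 2.39 (95% interval 2.28 to 2.51) times the value at 0 min. *Slc6a4*, which encodes the serotonin transporter, had 279, 244, 263, 259.8, 269, 359, 409 and 982 normalized counts and a ratio of 3.52 (95% interval 3.11 to 3.99). Its rise rests on the 120 min library, since the other 7 lay between 244 and 409 normalized counts. *Slc6a13*, which carries GABA and taurine, fell to 0.522 (95% interval 0.493 to 0.552) times its resting value, with 2961, 2636, 2532, 1990.0, 1942, 1664, 1691 and 1546 normalized counts. The leucine and phenylalanine carrier *Slc43a2* was the other gene of the class that fell, with 11507, 13141, 11359.8, 12044, 9850.5, 10004, 8167 and 5792 normalized counts and a ratio of 0.503 (95% interval 0.489 to 0.518). The 18 genes of this class that were not called at 120 min had ratios from 0.708 (*Slc6a12*) to 1.5 (*Slc3a2*).

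Of the sugar transporters, *Slc2a1* (chr4:119108745-119137330) rose. It encodes GLUT1, the glucose uniporter of most cells. Its normalized counts were 12338, 11128, 13445, 16436, 23234, 22756, 24640.2 and 32614, and all 4 libraries from 60 min on were above the earlier ones. It was called from 60 min on, with a ratio of 2.64 (95% interval 2.59 to 2.69) at 120 min. The other facilitative glucose transporters with enough counts were not called. *Slc2a3* (GLUT3) had 4812, 4911, 5019, 5329.7, 4916, 4595, 4562 and 5083 normalized counts, and *Slc2a6*, a transporter of intracellular membranes, had 10377, 10507, 10023, 10005, 10222, 9840.4, 9882 and 11271. Per length, *Slc2a6* had the highest resting level of the 3, with 43.3 RPKM against 34.4 for *Slc2a1* and 11 for *Slc2a3*. At 120 min *Slc2a1* had 79 RPKM against 40.9 for *Slc2a6*. RPKM is scaled to the total counts, *Rn45s* included, so it compares genes within a library and its change over time differs from that of normalized counts.

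Of the 4 *Slc37* genes, the sugar phosphate transporter family, 2 fell and 2 were not called. *Slc37a2*, an exchanger of glucose 6-phosphate and phosphate that is abundant in macrophages, had 20559.8, 19642, 19359, 17662, 16424, 15094, 13322 and 10450.0 normalized counts, lower in each library than in the one before. Its ratio at 120 min was 0.508 (95% interval 0.497 to 0.519). *Slc37a4*, which brings glucose 6-phosphate into the endoplasmic reticulum, had 2848, 2529, 2389, 2124, 1931, 1736, 1679.7 and 1548 normalized counts and fell to 0.543 (95% interval 0.513 to 0.575) times the value at 0 min. *Slc37a1* and *Slc37a3* had ratios of 0.777 and 0.759 without a call. The proton-coupled sugar transporter gene *Slc45a4* had 2514, 2762, 2655, 2591, 2098, 1791, 1516 and 1109.5 normalized counts and a ratio of 0.441 (95% interval 0.414 to 0.471). The 7 sugar transporters without a call had ratios from 0.69 (*Slc2a8*) to 1.09 (*Slc2a6*).

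Among the metal transporters, genes for a copper and an iron transporter rose late. *Slc31a2* (chr4:62280393-62298412) encodes CTR2, a copper transporter of endosomes and lysosomes. It had 659.6, 638, 608, 468, 684, 1526, 2786 and 4169.8 normalized counts, with the lowest value at 45 min and the rise beginning between 60 and 75 min. The ratio was 0.709 (95% interval 0.628 to 0.8) at 45 min, which was not called, 2.31 (95% interval 2.11 to 2.54) at 75 min and 6.32 (95% interval 5.86 to 6.83) at 120 min. The plasma membrane copper importer *Slc31a1* (CTR1) had 6187, 6595, 6336, 7188, 7157, 8567, 8139 and 7584 normalized counts and no call.

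*Slc11a2* (chr15:100387898-100424209) encodes DMT1, which moves ferrous iron and other divalent metals out of endosomes. Its normalized counts were 7484, 7028, 6917, 7238, 9590.5, 14769, 20852 and 34101, so that the values at 0 to 45 min lay together and those from 60 min on above them. It was called from 75 min on and reached 4.56 (95% interval 4.45 to 4.66) times the resting value. Its relative *Slc11a1* encodes NRAMP1, which pumps divalent metals out of the phagosome, and had 10362, 9760.1, 10013, 10095, 10225, 10454, 10699 and 12029.6 normalized counts with a ratio of 1.16 and no call. *Slc40a1* encodes ferroportin, the iron exporter, and fell from a low level, with 258, 263, 251, 261, 210.1, 199, 166 and 134 normalized counts and a ratio of 0.521 (95% interval 0.428 to 0.631). The heme transporter *Slc48a1* had a ratio of 0.664 that did not pass the test.

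Zinc exporters of the *Slc30* family and importers of the *Slc39* family were mostly without a call. *Slc30a4*, which loads zinc into vesicles, rose to 1.95 (95% interval 1.87 to 2.03) times its value at 0 min, with 2901, 2969, 3145, 3271, 3958, 4713, 5118 and 5663 normalized counts, a call that was lost with total counts as the scale. *Slc30a1*, the zinc exporter of the plasma membrane, had 2866, 3104, 2936, 2489, 2051, 1959, 1945 and 2148 normalized counts and no call. The importer *Slc39a3* was called lower at 75 and 90 min, with ratios of 0.556 (95% interval 0.512 to 0.604) and 0.589 (95% interval 0.545 to 0.636), and had 1962, 1632, 1712, 1407, 1600.1, 1091, 1155 and 1460.4 normalized counts. It is the 1 gene that was called only in libraries with a high share of *Rn45s*, and its ratios at 60 and 120 min were 0.816 and 0.745. *Slc39a14*, an importer of zinc and iron, had a ratio of 1.33 at 120 min, not called. The 22 metal and heme transporters that were not called at 120 min had ratios from 0.664 (*Slc48a1*) to 1.44 (*Slc39a1*).

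The class of inorganic ions held the gene with the largest ratio of the family at 30 min, when no *Slc* gene was called. *Slc20a1* (chr2:129198773-129211615) encodes PiT1, the sodium-dependent importer of phosphate. It had 11826, 11883, 18796, 34948, 49734, 53839, 52719.8 and 52116 normalized counts and stood above 0 min in every library from 30 min on. The ratio was 1.59 (95% interval 1.56 to 1.62) at 30 min, which passed 0.5 on the log2 scale but not the test, 2.96 (95% interval 2.9 to 3.02) at 45 min and 4.41 (95% interval 4.33 to 4.49) at 120 min. Its values from 60 to 120 min lay within 49734 to 53839, a plateau unlike the course of *Slc7a11* or *Slc31a2*. Of its exon bases 13.1% overlap other genes on the opposite strand. The second phosphate importer, *Slc20a2*, had 4719, 4657, 5186, 5257, 4807, 4662, 4739 and 4664 normalized counts and a ratio of 0.988.

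Transporters that set pH and cell volume made up the other rises of this class. The sodium bicarbonate cotransporter *Slc4a7*, which supplies base to the cytosol, had 8403, 9017, 9825, 11391, 11891, 14937, 17576 and 28804 normalized counts and a ratio of 3.43 (95% interval 3.35 to 3.51). The sodium proton exchanger *Slc9a4* had 3019, 2902, 3174, 3980.0, 5033, 6009, 6696 and 6999.9 normalized counts and a ratio of 2.32 (95% interval 2.23 to 2.41), with 21.3% of its exon bases shared with genes on the opposite strand. The potassium chloride cotransporter *Slc12a4*, which lets ions leave swollen cells, had 6161, 6228, 6296, 6588, 7036, 8414, 9533 and 13324 normalized counts and rose to 2.16 (95% interval 2.1 to 2.22) times the resting value.

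The lowest ratio of the family was that of *Slc26a11* (chr11:119355509-119381076), which encodes a sulfate and chloride transporter, with a counting interval that overlaps that of *Slc46a3*. Its normalized counts were 281, 250.3, 255, 252, 153, 98.6, 77.4 and 60, with every library from 60 min on below all earlier ones. The ratio was 0.546 (95% interval 0.451 to 0.658) at 60 min, when it was first called, and 0.214 (95% interval 0.164 to 0.276) at 120 min, from an RPKM of 0.949 at rest. *Slc12a9*, a relative of the chloride cotransporters, was called lower at 120 min with a ratio of 0.606 (95% interval 0.574 to 0.64). Of the 16 ion transporters without a call at 120 min, the sulfate transporter *Slc26a2* had a ratio of 0.747 and *Slc9a8* one of 1.39.

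**Figure D5:**
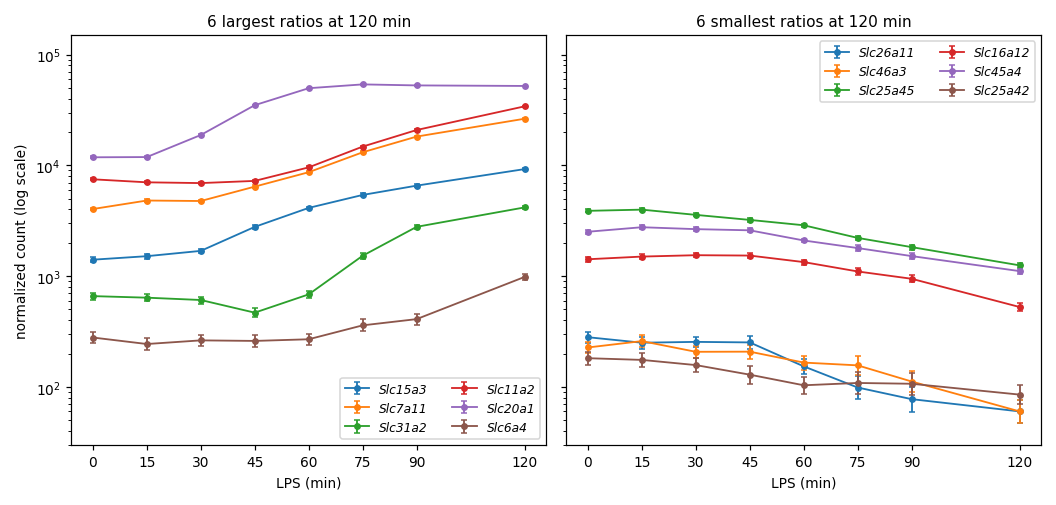
Normalized counts (log axis) over the time of LPS treatment in min for the 6 *Slc* genes with the largest (left) and the 6 with the smallest (right) ratio of 120 min to 0 min. Points are single libraries, and bars are 95% Poisson intervals of the count, which cover counting error only. *Slc20a1* flattens after 60 min, *Slc11a2* stands above its earlier values from 60 min and *Slc31a2* from 75 min, and *Slc6a4* is higher at 120 min.

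Of the mitochondrial carriers, *Slc25a33* (chr4:149744036-149774267) was called higher from 45 min on. The call at 45 min was lost with total counts (with or without *Rn45s*) or spike-ins as the scale. *Slc25a33* imports pyrimidine nucleotides into the matrix. It had 2112, 2040.1, 2384, 3483, 4765, 5130.0, 5062 and 5214 normalized counts and, like *Slc20a1*, stayed level from 60 min on. Its ratio at 120 min was 2.47 (95% interval 2.36 to 2.59), and 14.9% of its exon bases overlap a gene on the opposite strand. The ATP-Mg and phosphate carrier *Slc25a25* had 6734, 7313, 8698, 9347, 7529, 7736, 8620.5 and 11307 normalized counts, with a first maximum at 45 min (a library with a high share of *Rn45s*) and a call only at 120 min, at 1.68 (95% interval 1.63 to 1.73). That call was lost with total counts, with total counts without *Rn45s* and with spike-ins as the scale, and without the 4 libraries that stand apart.

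A total of 4 mitochondrial carriers fell. *Slc25a45* (chr19:5877801-5885768) had 3885, 3982, 3572, 3217, 2878, 2212, 1827 and 1250.5 normalized counts and a ratio of 0.322 (95% interval 0.304 to 0.341). *Slc25a38*, the glycine carrier needed for the first step of heme synthesis, had 3104, 2579.7, 2467, 2152, 2028, 1588, 1493 and 1468 normalized counts and a ratio of 0.473 (95% interval 0.447 to 0.5). *Slc25a42*, a carrier of coenzyme A with counts near the limit of the selection, had 181, 175, 157, 129, 103, 108, 107 and 85.1 normalized counts and a ratio of 0.469 (95% interval 0.368 to 0.596). The mitochondrial iron importer *Slc25a28* (mitoferrin 2) was called lower with a ratio of 0.6 (95% interval 0.57 to 0.632). Its call was lost with the trend with transcript length removed and without the 4 libraries that stand apart. The second mitoferrin gene, *Slc25a37*, had a ratio of 1.06 and no call. The citrate carrier *Slc25a1*, which exports citrate for lipid synthesis, had 6199.7, 5691, 5824, 5611, 6088, 6120.0, 6058 and 6572 normalized counts and no call. Ratios of the 30 mitochondrial carriers without a call at 120 min lay from 0.624 (*Slc25a36*) to 1.23 (*Slc25a32*).

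Nucleoside and nucleotide sugar carriers showed few calls. *Slc35d1*, which brings UDP-glucuronic acid into the endoplasmic reticulum, had 476, 516, 581, 831, 619.7, 836, 825 and 938 normalized counts and a ratio of 1.97 (95% interval 1.78 to 2.18), a call that was lost with total counts as the scale. The lysosomal nucleoside transporter *Slc29a3* had 850.3, 1048, 825, 1058, 694, 568, 517 and 493 normalized counts and fell to 0.58 (95% interval 0.523 to 0.642) times the value at 0 min. *Slc29a2*, an equilibrative nucleoside transporter of the plasma membrane, was lower at 60 min alone, with 545, 544, 420.1, 433, 301, 399.9, 389.8 and 474 normalized counts and a ratio of 0.552 (95% interval 0.483 to 0.631) at that time. The more abundant *Slc29a1*, with 47.7 RPKM at rest, had a ratio of 0.932 at 120 min. The concentrative nucleoside transporter *Slc28a2* lay just outside the selection. The 16 genes of this class without a call at 120 min had ratios from 0.634 (*Slc35b4*) to 1.31 (*Slc35a2*).

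Monocarboxylate transporters differed by member. *Slc16a12* had 1419, 1501, 1544, 1533, 1338, 1101, 946 and 526 normalized counts and fell to 0.371 (95% interval 0.338 to 0.406) times the resting value, with its lowest value at 120 min. The dicarboxylate transporter *Slc13a3* had 1360.2, 1384, 1177, 1120.4, 1085, 1039, 875 and 719 normalized counts and a ratio of 0.528 (95% interval 0.486 to 0.574). *Slc16a3*, the lactate exporter of glycolytic cells, had 25232, 24522, 24405, 23397, 27215, 25078, 25017 and 32216 normalized counts, with the highest value at 120 min and a ratio of 1.28 that was not called. In the class of vitamins, choline and lipids, the lysosomal transporter gene *Slc46a3* had 227, 259, 207, 208, 166, 156, 112 and 60 normalized counts and a ratio of 0.265 (95% interval 0.202 to 0.344). The choline transporter *Slc44a2* was the most abundant per length of the genes that fell, with 48.1 RPKM at rest. Its normalized counts were 19163, 18459, 17698, 17217, 15527, 13597, 12046 and 9447, lower in each library than in the one before, and the ratio was 0.493 (95% interval 0.482 to 0.504). Its relative *Slc44a1* had a ratio of 1.11, and the fatty acid transporter *Slc27a1* had the largest ratio of this class without a call, 1.36.

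The 12 genes with another or no assigned substrate included the urate transporter gene *Slc2a9*, with a ratio of 0.823. *Slc35f6* was called lower at 75 and 120 min, with 5023, 4892, 4562, 3904, 3372, 3066, 3219.7 and 3106 normalized counts and a ratio of 0.618 (95% interval 0.594 to 0.644). Its call at 120 min was lost with spike-ins as the scale, with the trend with transcript length removed and without the 4 libraries that stand apart. *Slc35e3* had the largest ratio of these 12 genes, 1.16, without a call. The 5 symbols that are not transporters include *Slc9a3r2*, a scaffold protein that binds sodium proton exchangers. It had 1437, 1442, 1383, 1203, 1217, 1019.5, 969 and 720.5 normalized counts and a ratio of 0.501 (95% interval 0.462 to 0.544), while *Slc7a6os*, named for its place next to *Slc7a6*, had a ratio of 1.43 and no call.

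At the selection limit, the 3 genes just inside were *Slc25a42*, *Slc4a8* and *Slc25a47*, with means of 130.7, 140.8 and 142.0 normalized counts. The 3 just outside were *Slc6a18*, *Slc28a2* and *Slc22a21*, with means of 90.5, 86.7 and 79.9. All 180 genes had at least 100 normalized counts at 0 min, so none was selected only through a rise after LPS, and 4 fell under 100 in at least 1 library. Of the 189 *Slc* genes outside the selection, 61 had no count in any library, 14 were called at some time and 4 reached 100 normalized counts in some library. The share called among all genes below the limit was not computed, so the 14 have no value to be read beside. A count of 0 allows up to 3 counts, or 0.0189 to 0.0299 per 1e6 counts of the library.

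The genes that rose and fell were compared by features of their transcripts, which the selection had not used, and by their resting level. The median longest annotated transcript had 3811 bases for the 19 genes that were higher at 120 min, 3196 for the 19 that were lower and 3212 for the 142 without a call. The pentamer AUUUA, the core of AU-rich elements that mark short-lived transcripts, occurred in the 3′ ends of 16 of 19 genes that were higher (84.2%), 11 of 19 that were lower (57.9%) and 96 of the 138 not called that had an annotated 3′ end (69.6%). Per kb of 3′ end, the median number of pentamers was 1.49 in the genes that were higher, 0.94 in those that were lower and 1.28 in the others. At rest the median level was 9.29 RPKM in the genes that were higher, 7.83 in those that were lower and 8.46 in the others. These are descriptions of the lists, with no test.

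Promoters, taken as the 250 bases before each RefSeq start (GRCm38.p6), were at hand for 139 of the 180 genes, among them 14 that were higher at 120 min and 16 that were lower. Each was searched on both strands for a kappaB consensus, the AP-1 motif TGANTCA, the antioxidant response core TGACNNNGC, the cAMP response element TGACGTCA, the amino acid response core TGATGNAA, the E-box CACGTG and the GC box GGGCGG. TGACNNNGC can share bases with the AP-1 motif and with the cAMP response element. A gene was counted when any of its windows held a match. Genes with several starts thus had more bases searched, and the shares were not adjusted for this. TGACNNNGC was found for 7 of the 14 genes that were higher, 6 of the 16 that were lower (37.5%), 18 of the 109 not called (16.5%) and 11.5% of the 27025 genes of the promoter table. The GC box was found for 78.6% of the genes that were higher, 81.2% of those that were lower, 67.9% of those not called and 35.4% of all genes, whose promoters had a median of 52.4% G and C against 61.6% in the *Slc* genes. The kappaB consensus was found for 0 of 14 genes that were higher, 3 of 16 that were lower and 4.46% of all genes. The AP-1 motif was present for 1 of 14, 2 of 16 and 7.82%, the E-box for 2 of 14, 3 of 16 and 6.86%, the cAMP response element for 1 of 14, 0 of 16 and 1.77%, and TGATGNAA for 1 of 14, 0 of 16 and 3.91%. A match in such a window is a description of its letters and not a site.

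The windows of 4 genes that rose are shown, *Slc7a11* as the riser that holds TGATGNAA and the others as examples with TGACNNNGC. Matches to any of these motifs but the GC box are in capitals. In *Slc7a11* (chr3:50443614-50443863, minus strand) both matches are to TGATGNAA, at 66 to 59 and 47 to 40 bases before the start, on opposite strands. In *Slc31a2* (chr4:62286179-62286428, plus strand) TGACNNNGC lies at 164 to 156 bases before the start, and in *Slc4a7* (chr14:14718534-14718783, plus strand) at 65 to 57. In *Slc7a1* (chr5:148399905-148400154, minus strand, the upstream of its 2 starts) the AP-1 motif lies at 123 to 117 and TGACNNNGC at 11 to 3 bases before the start.
Slc7a11: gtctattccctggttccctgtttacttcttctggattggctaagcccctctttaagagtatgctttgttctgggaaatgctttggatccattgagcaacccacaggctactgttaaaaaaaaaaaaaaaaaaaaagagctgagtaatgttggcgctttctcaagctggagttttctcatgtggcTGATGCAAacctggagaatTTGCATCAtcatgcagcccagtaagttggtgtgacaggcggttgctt
Slc31a2: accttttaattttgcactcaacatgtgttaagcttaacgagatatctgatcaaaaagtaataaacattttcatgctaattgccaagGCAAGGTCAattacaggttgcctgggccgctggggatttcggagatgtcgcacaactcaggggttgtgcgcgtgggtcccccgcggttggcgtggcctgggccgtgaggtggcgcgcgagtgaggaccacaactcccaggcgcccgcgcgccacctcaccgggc
Slc4a7: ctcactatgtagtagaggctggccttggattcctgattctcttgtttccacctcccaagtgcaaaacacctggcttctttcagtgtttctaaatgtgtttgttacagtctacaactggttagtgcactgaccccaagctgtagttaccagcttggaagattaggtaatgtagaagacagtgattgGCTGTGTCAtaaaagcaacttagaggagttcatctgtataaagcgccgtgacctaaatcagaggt
Slc7a1: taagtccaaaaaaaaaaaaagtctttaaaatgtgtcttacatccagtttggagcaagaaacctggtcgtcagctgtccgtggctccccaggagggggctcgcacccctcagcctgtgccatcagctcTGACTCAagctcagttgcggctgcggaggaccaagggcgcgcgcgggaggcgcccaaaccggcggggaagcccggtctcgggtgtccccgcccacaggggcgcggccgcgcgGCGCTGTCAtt
The windows of *Slc7a11*, *Slc31a2* and *Slc4a7* belong to starts inside the annotated span of the gene, which extends further upstream. No promoter entry was matched for *Slc15a3* and *Slc11a2*.

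Other genes of the same pathways, listed by function but with earlier results of these data known, were also counted at 120 min, when 9.27% of all genes were called higher and 8.52% lower. Each list held 0 to 2 calls in each direction, too few to set its share apart from these. Of 17 measured glycolysis enzymes none was higher and *Pfkfb4* was lower, at 0.461 times the 0 min value. Of 6 genes of glutathione metabolism, to which xCT supplies cysteine, *Cth* was higher at 2.47 and none was lower. Among 7 arginine and polyamine enzymes *Odc1*, the first enzyme of polyamine synthesis, was higher at 5.03 and *Sat1* at 1.69. Of 11 iron and heme genes the iron regulatory protein gene *Ireb2* was higher at 2.22 and none was lower, and of 6 zinc and copper genes none was called. Of 11 purine and pyrimidine salvage genes 2 were lower, the thymidine kinases *Tk1* at 0.449 and *Tk2* at 0.539.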

How the data were processed

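The table that the authors deposited holds unnormalized read counts of each gene symbol for 8 libraries, 1 per time point, and every library column was used. Per the methods, rRNA was depleted with Ribo-Zero, libraries were made with a directional kit, 58-base reads were aligned by Bowtie to mm10 RefSeq transcripts and reads matching several genes were discarded. The submitters' processing notes name CASAVA 1.8.2 and DESeq 1.10.1. Size factors by the median of ratios, a parametric dispersion (0.0287 + 0.853/mean) over all 8 libraries taken as replicates, as in the study, and an exact negative binomial test of each library against 0 min were computed from the counts over all genes in Python 3.11.15 (numpy 2.4.6, scipy 1.17.1, numba 0.67.0). With 1 library per group a quasi-likelihood fit leaves no residual degrees of freedom. The code was tested on simulated data. The 2 rows without an accession were read as the spike-in transcripts and left out of genes and totals. Ratios have exact conditional binomial and RPKM values exact Poisson 95% intervals, which cover counting error only. RPKM values use unique 58-mers of GENCODE vM21 transcripts matched by accession, and gene coordinates come from RefSeq (GRCm38). Alternatives used edgeR 4.0.16 and DESeq2 1.42.0 in R 4.3.3.

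The genes, the substrate classes and the pathway lists were chosen with earlier results of these data known. Named genes are the 12 largest and 12 smallest ratios at 120 min, the extremes of each class, of 45 min and of 30 min, the 10 highest levels, well-known macrophage carriers and the 3 genes on each side of the limit. Other called genes were named after their values were seen. Some genes are not reported here by name.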

Additional observations from a re-analysis of the deposited data

How the results depend on the processing

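No paired analysis was possible because each time point has 1 library. Of 14 other settings, 2 of them chosen after seeing the data (spike-in scale, length trend), none reversed a call. Of the 38 calls at 120 min, 38 were kept with TMM factors, the DESeq2 dispersion trend or a fold limit without the test, 36 with the length trend removed or total counts without *Rn45s*, 35 with spike-ins, 34 with total counts, 33 with 4 libraries, 30 with the edgeR dispersion trend, 23 with a log2 limit of 1 and 20 with Benjamini-Hochberg adjustment. The 20 comprise 15 genes that rose and 5 that fell (*Slc26a11*, *Slc46a3*, *Slc25a45*, *Slc16a12* and *Slc45a4*).

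Counts that moved by over 1.5 times were these. With the fold limit alone there was 1 gene lower at 15 min and 1 higher at 30 min, 11 higher against 2 lower at 45 min, 13 against 7 at 60 min, 15 lower at 75 min, 25 lower at 90 min, 30 lower at 120 min and 67 in all. A log2 limit of 1 gave 1 higher at 45 min, 4 higher against 0 lower at 60 min, 6 against 1 at 75 min, 4 lower at 90 min, 8 lower at 120 min and 23 in all. Benjamini-Hochberg adjustment gave 1 higher at 45 min, 2 against 0 at 60 min, 4 against 1 at 75 min, 6 against 1 at 90 min, 5 lower at 120 min and 20 in all. The edgeR trend gave 2 higher at 45 min and 0, 3, 3 and 12 lower at 60, 75, 90 and 120 min, and the DESeq2 trend 1 higher at 30 min. Admitting genes with a mean of at least 10, or all genes, gave 11 or 12 higher at 60 min. The 4 libraries gave 1 lower at 60 min. Total counts gave 1 higher at 45 min, 5 against 14 at 75 min and 8 against 19 at 90 min, total counts without *Rn45s* 2 higher at 45 min and 16 lower at 90 min, and spike-ins 3 higher at 45 min, 3 against 7 at 60 min, 2 lower at 75 min and 4 lower at 90 min. Among these settings, shares of all genes were computed for the changes of scale alone. The other counts have no such share beside them and are not read as a trait of the *Slc* genes. Apart from what each setting changes by construction, the cause was not tested.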

Other observations

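The ATP-driven ABC transporters, the other large transporter family, were listed for comparison. Of 18 with a mean of at least 100 normalized counts, 2 were higher and 2 lower at 120 min, near the shares of all genes (9.27% and 8.52%), with a median log2 ratio of -0.07. *Abca1*, which exports cholesterol, was higher at 3.87 times the value at 0 min, and *Abcc1*, which exports glutathione conjugates, was higher at 1.63. *Abcg1*, a further cholesterol exporter, was lower at 0.357 and *Abcd4* at 0.612.

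Below the selection limit, *Slc26a9*, which encodes a chloride transporter, had 27.4, 18.1, 34.4, 26, 94.4, 109.8, 128 and 144 normalized counts, with all 4 libraries from 60 min on above the earlier ones. It was chosen for mention after its values were seen, since it is one of the 4 genes outside the selection that reached 100 normalized counts in some library.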
